A study of Caenorhabditis elegans with 2 samples.

Results

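Respiratory chain and ATP synthase genes were examined for binding of EKL-4, the worm relative of the chromatin factor DMAP1, by chromatin immunoprecipitation and sequencing (ChIP-seq) in whole Caenorhabditis elegans. The group was chosen by gene name in the WBcel235 annotation: nuo-, nduf-, cox-, ucr- or atp- followed by a digit, plus isp-1, cyc-1, sdha-1, sdhb-1, mev-1, sdhd-1, gas-1, cyc-2.1 and cyc-2.2. It held 46 of 19973 protein-coding genes of the nuclear chromosomes: 13 of complex I, 4 of complex II, 7 of complex III, 2 for cytochrome c, 7 subunits of complex IV, 8 assembly factors of complex IV and 5 of complex V. The 12 protein-coding genes of the mitochondrial chromosome, which encode further subunits, are not among them. There was 1 group with 2 biological replicates: young adults aged 65 h, grown from starved first-stage larvae, whose own ekl-4 gene had been edited by CRISPR to add TY1, EGFP and FLAG tags, and an antibody to GFP was used. Whole animals were pooled, so strong binding in few cells and weak binding in many cannot be told apart. The main list was the authors' conservative one, derived from both replicates, with 2482 peaks. The thresholded lists of the single replicates held 1495 and 1846. A summit, the highest point of a peak, was assigned to a gene if it was no more than 500 bp away from the annotated start of at least 1 transcript.

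The respiratory chain passes electrons from NADH (complex I) and succinate (complex II) through ubiquinone to complex III, on to cytochrome c and then to complex IV, which reduces oxygen. Complexes I, III and IV pump protons across the inner mitochondrial membrane, and ATP synthase (complex V) uses that gradient to make ATP. In C. elegans, mild loss of several of these subunits is known to lengthen life, and the nuclear genes for the subunits must be expressed in step with those of the mitochondrial genome. Many worm mRNAs are trans-spliced, so an annotated 5' end need not be where transcription starts.

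The sequence under the 3 strongest summits on chromosome III is printed because these sites include the strongest of the group, that of cox-5A. Some summits stronger than those of cox-6B and mev-1 are not on this chromosome and are not printed. Whether the printed sequence bears on binding was not tested. Each printed window holds the summit base and 100 bp on each side on WBcel235. It is read 5' to 3' on the plus strand, which is that of all 3 genes. Capitals mark CGTCTC and GTGCGC on either strand, letters that were chosen after these windows were seen. The cox-5A window (chrIII:12905109-12905309) and the mev-1 window (chrIII:10334051-10334251) have their summits in intergenic sequence, and that of cox-6B (chrIII:2785951-2786151) in an intron of the longer cox-6B transcript.
cox-5A: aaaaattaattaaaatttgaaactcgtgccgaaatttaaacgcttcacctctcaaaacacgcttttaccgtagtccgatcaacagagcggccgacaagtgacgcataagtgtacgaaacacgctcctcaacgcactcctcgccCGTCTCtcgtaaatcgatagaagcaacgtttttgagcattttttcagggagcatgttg
cox-6B: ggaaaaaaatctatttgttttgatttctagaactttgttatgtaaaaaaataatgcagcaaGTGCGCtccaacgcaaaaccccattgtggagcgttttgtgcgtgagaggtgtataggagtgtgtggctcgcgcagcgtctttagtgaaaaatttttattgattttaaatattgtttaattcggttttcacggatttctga
mev-1: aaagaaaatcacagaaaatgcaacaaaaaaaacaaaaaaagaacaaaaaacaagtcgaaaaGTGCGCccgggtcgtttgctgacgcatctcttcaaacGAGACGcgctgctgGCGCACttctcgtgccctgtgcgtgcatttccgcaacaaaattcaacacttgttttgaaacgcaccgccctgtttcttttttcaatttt

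Of the 46 genes, 11 had a summit in the conservative list (23.9%, 95% Wilson interval 13.9 to 37.9, counting over genes only), beside 6.42% of all protein-coding genes. They were nuo-2 and nuo-3 of complex I, mev-1 of complex II, cyc-1 and ucr-1 of complex III, cyc-2.1 for cytochrome c, cox-5A, cox-5B and cox-6B of complex IV, and atp-1 and atp-2 of complex V. Every complex was thus represented, while none of the 8 assembly factor genes had a summit (0 of 8, 95% Wilson upper limit 32.4%). Among the 38 genes that are not assembly factors the share was 28.9%. Genes are not replicates, and no test of the group was made. Each of the 11 genes had its own summit, and none had more than 1. The thresholded list of replicate 1 had a summit at 7 of the 46 genes (all genes 4.46%) and that of replicate 2 at 11 (all genes 4.76%). The larger thresholded list of the whole series had 12 (all genes 7.20%).

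**Figure D1:**
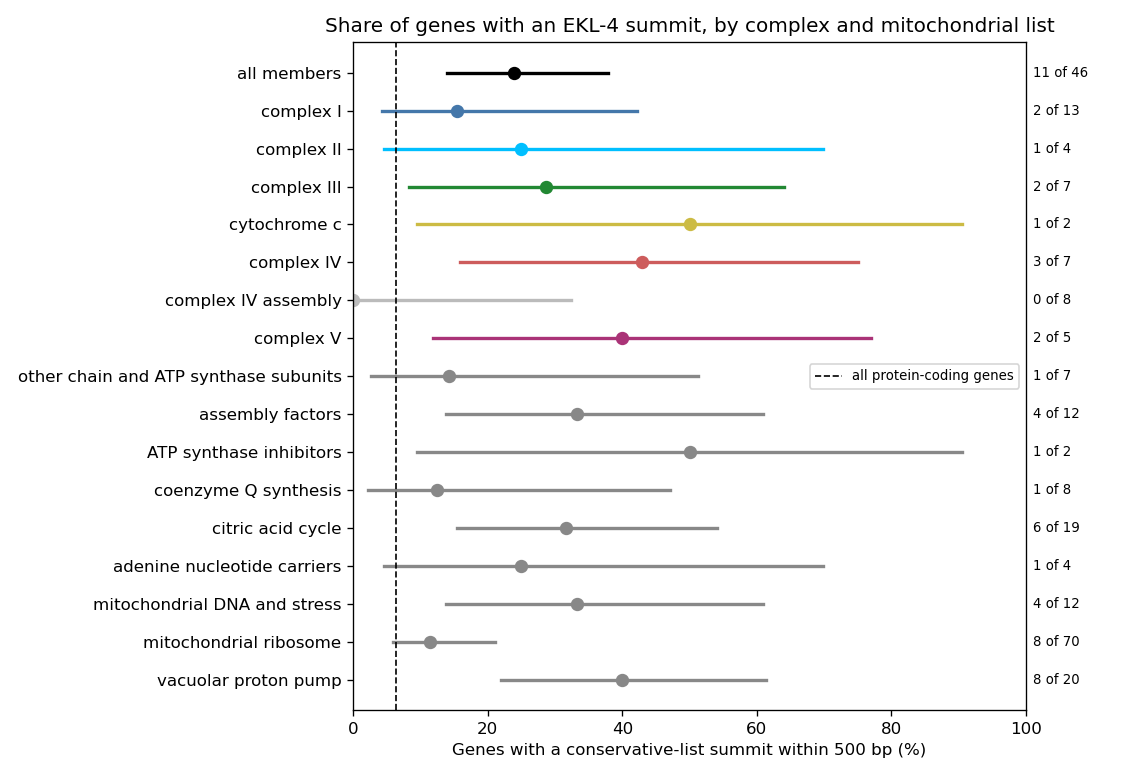
Share of genes with a conservative-list summit within 500 bp of a 5' end (x axis, percent) for the 46 genes, for each complex and for other lists, with counts at the right. Points are shares, bars are 95% Wilson intervals over genes, and the dashed line is the share of all protein-coding genes (6.42%). Complex IV subunits (3 of 7) and complex V (2 of 5) lie farther to the right than complex I (2 of 13), with wide intervals that overlap.

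Complex IV, cytochrome c oxidase, had the strongest sites of the group. At cox-5A, which encodes a nuclear subunit of the oxidase, the deposited signal, the authors' own measure of a peak's strength, was 263 in replicate 1 and 291 in replicate 2. The conservative list gave it 552, rank 21 of 2482. Its summit lay 282 bp upstream of the gene, and no other protein-coding 5' end was within 500 bp. At cox-5B, another nuclear subunit, the signal was 192 in replicate 1 and 216 in replicate 2, and 394 in the conservative list (rank 67). That summit was 32 bp upstream of the gene (peak I 9788603 to 9788812). At cox-6B, which encodes a small subunit, replicate 1 gave 154 and replicate 2 gave 124, with 283 in the conservative list (rank 141). The 2 annotated cox-6B transcripts start far apart, and the summit lay 151 bp upstream of the shorter one but 86388 bp downstream of the longer one's 5' end. It was also 103 bp upstream of the divergent gene Y71H2AM.20, which was the nearer start. These 3 peaks were in the thresholded lists of both replicates, with replicate 2 higher at cox-5A and cox-5B and lower at cox-6B.

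The other 4 oxidase subunit genes had no thresholded summit in any list. The ranked lists hold many more peaks than the thresholded ones. In them the strongest peak near cox-4 reached 23.3 (replicate 1) and 40.8 (replicate 2), and that near cox-7C 17.3 and 28.5. At cox-6C these were 16.9 (41 bp upstream) and 45.9 (447 bp upstream), and cox-6A had 19.1 in replicate 2 and no ranked peak in replicate 1. All lay below the 3 genes with a summit in the same replicate. Conservative summits did lie farther off. One with signal 219 (rank 248) was 804 bp upstream of cox-6A, and one with signal 106 (rank 1294) was 964 bp downstream of the cox-7C start.

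Complex V, the ATP synthase, had summits at the genes of both subunits of its catalytic head. At atp-1, for the alpha subunit, the signal was 116 in replicate 1 and 197 in replicate 2, with 312 in the conservative list (rank 112). The summit was 20 bp downstream of the start, in the 5' UTR (peak I 12652181 to 12652344), and 210 bp upstream of the divergent gene mcrs-1. At atp-2, for the beta subunit, replicate 1 gave 59.0 and replicate 2 gave 51.1, with 112 in the conservative list (rank 1144, peak III 5227998 to 5228357). That summit was intergenic, 239 bp upstream of atp-2 and 294 bp upstream of the divergent gene C34E10.10, with C34E10.12 starting beside it at 297 bp. The remaining genes, atp-3 for the stalk subunit OSCP, atp-4 and atp-5, had no conservative summit within 500 bp. The strongest ranked peak at atp-5 was 37.8 in replicate 1, 252 bp downstream, and 35.7 in replicate 2, 458 bp downstream.

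The gene atp-4 was the nearest miss of the group. Its closest conservative summit, with signal 81.9, was 503 bp upstream, 3 bp outside the window, whereas the farthest summit inside the window was that of nuo-3 at 448 bp. Replicate 2 also had a thresholded summit 116 bp downstream of the atp-4 start (signal 77.2). The larger list had it too (88.3, at 114 bp). In replicate 1 the strongest ranked peak within 500 bp was 28.1, at 436 bp upstream. The nearer summit was thus in the thresholded list of 1 replicate only.

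Complexes II and III and cytochrome c had 4 summits, those of mev-1, cyc-1 and cyc-2.1 in the top 25% of the conservative list and that of ucr-1 near its end. At mev-1, for the large cytochrome b subunit of succinate dehydrogenase, the signal was 66.0 in replicate 1 and 89.1 in replicate 2, with 158 in the conservative list (rank 550), 126 bp upstream and shared with the divergent gene jmjd-4. At cyc-1, for cytochrome c1, it was 74.6 in replicate 1 and 97.8 in replicate 2, with 169 in the conservative list (rank 464, 291 bp upstream, peak I 8024533 to 8024892). Both genes were thus found in both replicates, higher in replicate 2. At cyc-2.1, for cytochrome c, replicate 2 gave 121 at 84 bp downstream and the conservative list 155 at 65 bp (rank 570), in an intron of the gene. Replicate 1 had no thresholded peak there, and its strongest ranked peak within 500 bp was 69.7 at 249 bp upstream. The conservative peak is narrow, 92 bp (IV 4748858 to 4748949), with its summit at the peak's edge.

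The summit at ucr-1, for a core protein of complex III, was the weakest of the 11. It had a signal of 77.1 in the conservative list (rank 2128, peak III 5591732 to 5592091), 223 bp upstream, and was absent from the thresholded list of each replicate and from the larger list. The ranked lists had 35.3 in replicate 1 and 49.9 in replicate 2. The summit was nearer to the divergent gene ddx-15, for a splicing-type RNA helicase, at 194 bp. In complex II, sdha-1, sdhb-1 and sdhd-1 had no thresholded summit. In complex III the same held for isp-1, for the Rieske iron-sulphur protein, and for ucr-11, ucr-2.1, ucr-2.2 and ucr-2.3. Of these, sdha-1 had a ranked signal of 30.0 in replicate 1 and 40.6 in replicate 2, ucr-11 had 27.1 and 52.4, and ucr-2.3 had 19.6 and 16.3. The ucr-11 peaks were at different places, 125 bp downstream in replicate 1 and 458 bp upstream in replicate 2. So were those of ucr-2.3, at 482 bp downstream and 494 bp upstream.

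Complex I, the largest of the complexes, had summits at 2 of 13 genes, and both were in the list of replicate 2 but not in that of replicate 1. At nuo-2, for a core subunit of the peripheral arm, replicate 2 gave 65.2 and the conservative list 135 (rank 800), 153 bp upstream in the 3' UTR of the gene before it, T10E9.14. Replicate 1 had no ranked summit within 500 bp of nuo-2, although the conservative list derives from both replicates. A missing ranked peak is thus not shown to mean that a replicate had no signal. At nuo-3, an accessory subunit gene, replicate 2 gave 68.8 and the conservative list 83.5 (rank 1961). That summit lay 448 bp downstream of a transcript start and 522 bp from the outermost one, in the 5' UTR of nuo-3 and in a coding exon of a second gene that overlaps it. Replicate 1 had a ranked signal of 31.1 within 500 bp of nuo-3.

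Among complex I genes without a conservative summit, nuo-1, for the NADH-binding subunit, came closest by the lower of its ranked signals in the replicates. Its ranked signal was 43.1 in replicate 1 and 38.8 in replicate 2, at 293 and 278 bp upstream, and the larger list held a thresholded summit at 298 bp upstream with signal 69.9. Next, by the lower of its values in the replicates, was nduf-11, with 34.5 in replicate 1 and 36.5 in replicate 2. In the ranked list derived from both replicates the order was reversed, with 74.3 at nduf-11 and 69.9 at nuo-1. The genes nduf-2.2, nduf-5, nduf-6, nduf-7, nuo-4, nuo-5 and nuo-6 had ranked peaks only, and gas-1 and nduf-9 had none in either replicate. The pair gas-1 and nduf-2.2, which both encode the same core subunit, thus had no thresholded summit, although a conservative summit with signal 202 lay 781 bp upstream of nduf-2.2.

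Assembly factors of complex IV, which insert haem and copper or help join subunits, had no thresholded summit within 500 bp in any of the 4 lists. By the lower of their ranked signals in the replicates, the highest were cox-16, with 37.0 in replicate 1 and 42.5 in replicate 2, and cox-10, for a haem synthesis enzyme, with 23.4 and 45.8. From the nearest cox-16 start, the peak was 467 bp downstream in replicate 1 and 445 bp upstream in replicate 2. At cox-10 the peaks were 322 and 339 bp upstream. The genes cox-11, cox-15, cox-17, cox-18 and cox-19 had ranked peaks in at least 1 replicate, and cox-14 had none. A conservative summit with signal 97.3 lay 544 bp downstream of a cox-16 start. Whether assembly factors differ from subunits was not tested.

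**Figure D2:**
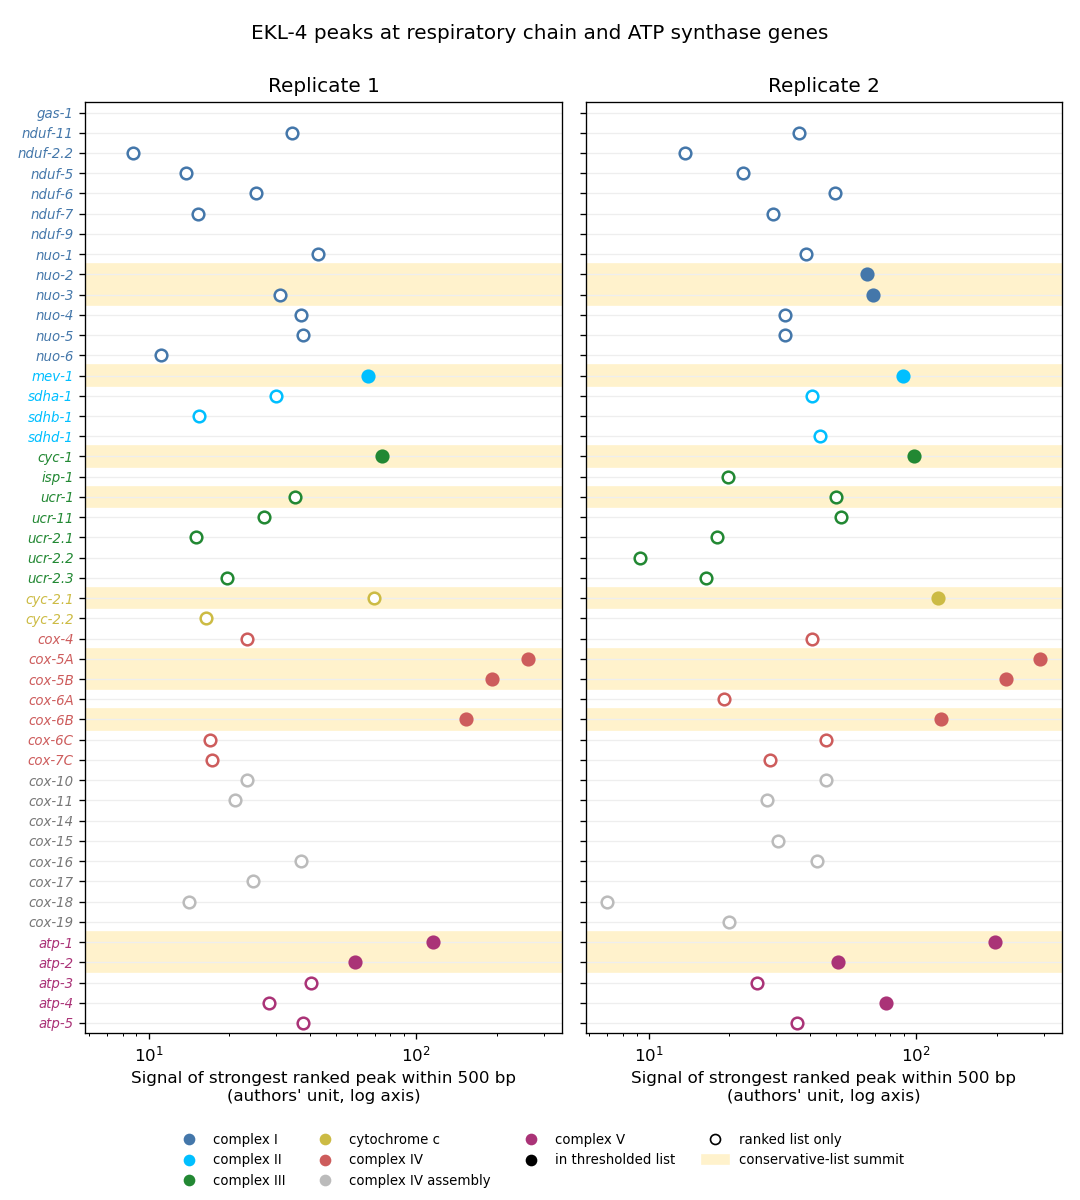
Signal of the strongest ranked peak within 500 bp of each of the 46 genes (x axis, authors' unit, log scale) in replicate 1 and replicate 2, coloured by complex. Filled points are in that replicate's thresholded list, open points only in its ranked list, shaded rows have a conservative-list summit, and a row with no point has no ranked peak. The 3 oxidase genes cox-5A, cox-5B and cox-6B sit at 124 or above in both replicates, and atp-1 at 116 and 197.

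The ranked lists, which hold many more peaks, were also read. Within 500 bp, 36 of the 46 genes had a ranked peak in replicate 1 (all genes 44.7%) and 39 in replicate 2 (all genes 66.6%). Of the 35 genes with no conservative summit, 26 had one in replicate 1 (74.3%, beside 41.0% of all genes with no conservative summit) and 28 in replicate 2 (80.0% beside 64.3%). Their median signal was 23.4 in replicate 1, beside 17.4 for all such genes with a ranked peak, and 31.3 in replicate 2, beside 23.4. The highest values were 43.1 (nuo-1) and 77.2 (atp-4). The 11 genes with a conservative summit had a ranked peak in 10 cases in replicate 1 (90.9%, beside 98.8% of all genes with one). In replicate 2 it was 11 (100%, beside 99.5%). Median signals were 72.2 in replicate 1, beside 54.1 for all such genes, and 97.8 in replicate 2, beside 68.1. The conservative list derives from the same 2 replicates, so the difference from the other 35 genes is not independent of how the sets were made. The 2 sets of genes overlap in both replicates. Only these 2 libraries enter, each from pooled animals, so there is at most 1 pair of values at each gene. The spread between animals was not measured.

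The 11 summits were stronger than the usual summit at a gene start. Their conservative signal ran from 77.1 to 552 with a median of 158, beside a median of 112 over the 1152 main summits at protein-coding starts. Counted by gene, the median over all genes with a summit was 122. In the top 25% of all main peaks by signal were 7 of 11 (63.6%), beside 29.8% of summits at gene starts. A thresholded peak of both replicates overlapped 7 of 11 (63.6%, beside 45.7%), 3 met one of replicate 2 only, and 1, ucr-1, met neither (9.09%, beside 25.7%). None lay in repeated sequence, beside 12.0% of summits at gene starts. These are descriptions over 11 sites, with no test.

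Most summits were upstream. Of the 11, 8 lay upstream of the start (72.7%, beside 71.2%), at a median of -151 bp (beside -116 bp for all summits at gene starts). The exceptions were atp-1, cyc-2.1 and nuo-3. Another protein-coding 5' end lay within 500 bp of 6 of the 11 summits (54.5%, beside 21.5%). These shares are not fully alike, since the 21.5% counts each summit once and the 11 were reached through their genes. Counting through genes favours summits near more than 1 start. In 5 of the 6, at mev-1, ucr-1, cox-6B, atp-1 and atp-2, the summit was upstream of a gene on the other strand, so the signal cannot be given to 1 of the pair. Divergent arrangement was common in the group as a whole: 22 of 46 genes had an opposite-strand start within 1000 bp upstream (47.8%), beside 17.7% of all genes and 39.2% of all genes with a main summit. Operon-like spacing, a start within 500 bp downstream of the end of a same-strand gene, held for 15 (32.6%), beside 18.1%. Its part in the share of genes with a summit was not tested. Without genes in such spacing, 8 of 31 had a summit (all such genes 5.88%). Of the 11, this left out nuo-2, cyc-1 and cyc-2.1, whose own starts have such spacing.

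**Figure D3:**
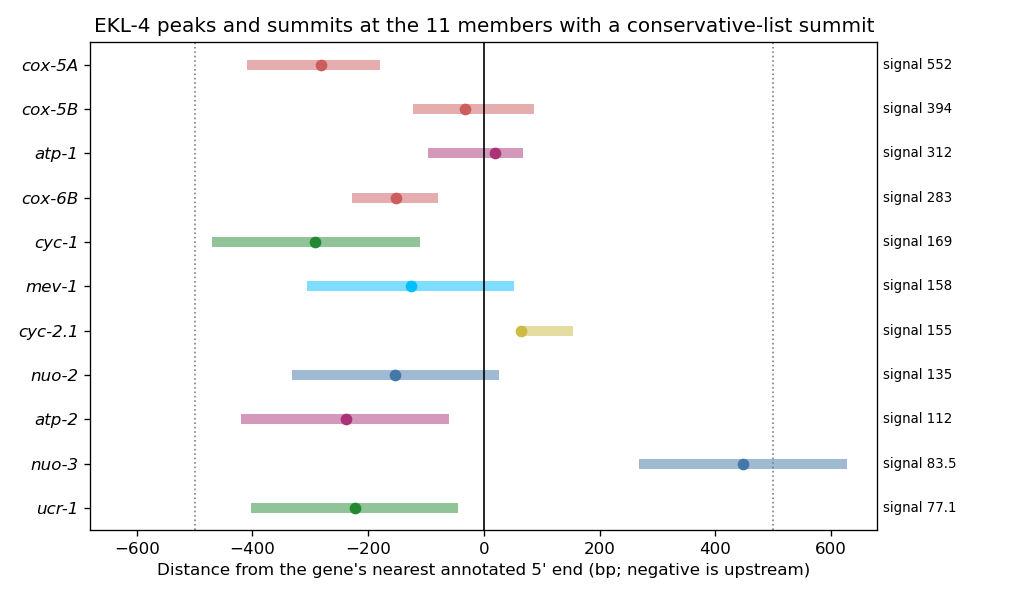
Conservative-list peaks (bars) and summits (points) at the 11 genes with a summit, by distance from the nearest annotated 5' end in bp, with negative values upstream and signal at the right. Dotted lines mark 500 bp on either side. Summits of 8 genes lie left of 0, and that of nuo-3, at 448 bp, lies closest to the limit.

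The count changed with how far a summit could lie from the start. It was 8 within 250 bp (all genes 4.08%), where cox-5A, cyc-1 and nuo-3 dropped out, and 16 within 1000 bp (all genes 8.82%), where atp-4, cox-16, cox-6A, cox-7C and nduf-2.2 came in. With any part of the peak within 500 bp it was 13 (all genes 7.26%). Giving each summit only to its nearest start left 9 (all genes 5.33%), without cox-6B and ucr-1. Using only the outermost 5' end of a gene left 9 (all genes 5.96%), without cox-6B and nuo-3. Summits at or above the median signal left 9 (all genes 3.84%), without nuo-3 and ucr-1, and dropping summits in repeated sequence left all 11 (all genes 5.75%). At mev-1, cox-5B, atp-1 and atp-2 a summit was found in each of these settings and in each of the other lists.

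The 11 genes were on 3 of the 6 nuclear chromosomes. On I, 4 of 13 members had a summit (all genes there 9.28%), on III 5 of 12 (9.81%) and on IV 2 of 6 (7.86%). On II 0 of 6 had one, on V 0 of 5 and on X 0 of 4. The Wilson upper limits, as used above for assembly factors, were 39.0%, 43.4% and 49.0% (all genes there 6.06%, 4.33% and 2.67%). The X-linked genes are gas-1, sdha-1, ucr-2.1 and ucr-2.2. A difference between chromosomes was not tested.

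Where the group has gene copies, the summit was at 1 of them or none. Cytochrome c is encoded by cyc-2.1, described above, and by cyc-2.2, which had a ranked signal of 16.4 in replicate 1 and no ranked peak in replicate 2. The 3 genes for core protein 2 of complex III, ucr-2.1, ucr-2.2 and ucr-2.3, had none. For the flavoprotein of complex II, sdha-1 had none, while sdha-2, which the naming rule leaves out, had a weak conservative summit (signal 71.3, 141 bp upstream, in neither replicate's thresholded list).

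Some other genes of mitochondrial energy metabolism also had summits, beside 6.42% of all protein-coding genes. The lists of such genes were chosen with earlier results of these data known. Of 7 further subunit genes (lpd-5, sdha-2, asb-1, asb-2, asg-1, asg-2 and hpo-18), sdha-2 was the 1 with a summit. The Wilson interval of that share, 2.57 to 51.3%, includes the share of all genes. Of 12 further assembly factor genes 4 had one (33.3%), led by sco-1, for a copper chaperone of complex IV, with 81.8 in replicate 1, 89.8 in replicate 2 and 153 in the conservative list. The 8 assembly factor genes with cox- names had 0. Of 19 citric acid cycle genes 6 had one (31.6%), led by dld-1, for dihydrolipoamide dehydrogenase, with 93.4 and 96.8 in the replicates (189 in the conservative list) at a summit shared with nspg-9, and aco-2, for mitochondrial aconitase, with 96.2 and 98.3 (189), a summit shared with eef-1B.1.

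Among genes that supply or use the chain, 1 of 8 coenzyme Q genes had a summit (coq-3, 88.3), 1 of 4 adenine nucleotide carrier genes (ant-1.1) and 1 of 2 ATP synthase inhibitor genes (mai-2, 81.3). At ant-1.1, which exchanges ADP for ATP across the inner membrane, the signal was 126 in replicate 1, 132 in replicate 2 and 242 in the conservative list, 33 bp upstream. Of 12 genes for mitochondrial DNA and stress 4 had one, led by clpp-1, for a matrix protease (161, shared with mdt-22), and atfs-1, for the transcription factor of the mitochondrial unfolded protein response (134, in replicate 2 but not replicate 1). Mitochondrial ribosomal protein genes had 8 of 70 (11.4%), led by mrpl-28 (228), and the vacuolar proton pump, another rotary proton machine, had 8 of 20 (40.0%), led by vha-1 (388, shared with sqv-3). Their median conservative signals were 109 and 160, beside 158 for the respiratory group and 122 for all genes with a summit. The intervals of these shares overlap that of the respiratory group, and the differences were not tested. The share of all protein-coding genes, 6.42%, lies inside the Wilson intervals for coenzyme Q (2.24 to 47.1%) and nucleotide carrier genes (4.56 to 69.9%). It also lies inside that for mitochondrial ribosomal protein genes (5.91 to 21.0%). It lies below those of the other lists in this paragraph.

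The GC content of the summit windows, 100 bp on each side of the summit, was near that of other summits at gene starts. Over the 11 windows it ran from 35.3% at cyc-2.1 to 52.7% at cox-5B, with a median of 41.3%, beside 42.0% over all summits at gene starts. In other windows the medians lay farther apart, in opposite directions. They were 51.5% beside 46.5% with 50 bp on each side, and 35.7% beside 38.4% with 200 bp on each side. In the 300 bp from 250 bp before to 50 bp after the outermost start, median GC was 38.7% for the 11 genes with a summit, 33.7% for the 35 without, and 34.3% for all genes. The highest GC, at cox-5B and at atp-1 (49.3%), was at sites whose summits lay within 32 bp of the start.

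Short motifs were counted on both strands. An E2F form (TTGGCGC or TTGCCGC or TTCGCGC or TTCCCGC) was in the windows of nuo-2, nuo-3 and cox-5B, 3 of 11, beside 20.6% of all windows at gene starts. In the 300 bp at gene starts it was at 6 of 46 genes (13.0%), beside 9.20% of all genes. The letters CTGCGTCTC were at ucr-1, beside 7.64% of windows. The letters CGCATGCG, the core of the vertebrate NRF1 palindrome, were in no window of the 11 (0.260% of all windows) and in the start region of cox-16 (0.110% of all genes). The E-box CACGTG was in none of the 11 windows and at none of the 46 starts (4.77% of windows and 5.82% of starts).

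The letters picked from the printed windows were then counted everywhere. CGTCTC, which lies inside CTGCGTCTC, was in 3 of 11 windows (mev-1, ucr-1 and cox-5A), beside 18.4%, and GTGCGC in 4 of 11 (mev-1, cyc-1, ucr-1 and cox-6B), beside 15.0%. At the starts of all 46 genes the shares were 19.6% for CGTCTC (all genes 11.2%) and 10.9% for GTGCGC (all genes 5.60%). Since these letters were chosen in 3 of the same windows, the counts describe the windows and nothing else. A match is a run of letters and was not tested as a binding site.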

How the data were processed

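EKL-4 ChIP-seq peaks from 2 biological replicates of 1 group were used. The authors called peaks on ce11 and sorted them by IDR (irreproducible discovery rate), per the accompanying text files. Those files also list, for each thresholded list, an input that they do not describe and that the ranked lists lack; what it did to the calls is not known. Aligner and caller: not given in the sources used here. Signal, as deposited, is the authors' value for a peak, on a scale not stated, and the deposited score is their IDR score, at least 830 in each thresholded list. Read depth is unknown, so no value is set against reads. The ranking behind the larger list and the control libraries were not used here.

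Summits were placed at the peak start plus the summit offset, which the authors deposited. They were assigned to protein-coding genes of the Ensembl 115 annotation of WBcel235, whose chromosome lengths no deposited peak exceeded. Sequence came from the RefSeq FASTA of that build, in which 46 of the 46 genes lie at an overlapping place. Coordinates are 1-based. Motifs were matched exactly. Repeated sequence means that 10% or more of the 31-mers in the window of 100 bp on each side of the summit occur more than once. The members, lists and motifs were chosen with earlier results of these data known. All genes with a conservative summit are named in full, with genes without one that have a thresholded summit elsewhere or are among the 2 highest per complex by the lower of their ranked signals in the replicates. A ranked signal is that of the strongest peak within 500 bp in each replicate, which need not be at the same place in both. Of the listed names, 1 had no gene. With 1 group there was no test between conditions, and no gene set test was run. The assignment code was checked on simulated data: 200 of 200 planted summits were found among 19973 genes. Each was planted within the same 500 bp, so this checks the code and not whether a summit belongs to its gene. Python 3.11.15, numpy 2.4.6, scipy 1.17.1 and matplotlib 3.10.9 were used.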

Additional observations from a re-analysis of the deposited data

Results flagged for a closer look

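Peaks on the mitochondrial chromosome, which carries the other subunit genes of these complexes, were seen in 1 replicate only. The thresholded list of replicate 2 held 16 of them and the larger list 18, while those of replicate 1 and the conservative list held 0. They are outside every comparison above because the gene rule covers nuclear genes. The cause was not tested.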

How the results depend on the processing

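The count of genes with a summit (11) stayed within 1.5 times in 10 of 11 alternatives, from 8 to 16. With 1 replicate at a time it ran from 7 (replicate 1 alone) to 11 (replicate 2 alone), both for all 46 genes and for the 38 without assembly factors. In the list of replicate 1, nuo-2, nuo-3, ucr-1 and cyc-2.1 had no summit. The 11 of replicate 2 are not the same genes as the 11 of the conservative list, since they include atp-4 and lack ucr-1. The median signal at members was 97.8 in replicate 2 alone and 116 in replicate 1 alone (all genes with a summit 80.1 and 68.8). These medians are over different genes, 11 in replicate 2 and 7 in replicate 1, so they do not compare the replicates at the same sites. The conservative list gave 158 (all genes with a summit 122). Median GC of the summit windows was 51.5% with 50 bp on each side and 35.7% with 200 bp on each side (all summits at starts 46.5% and 38.4%). The share of summits upstream was 75.0% within 250 bp and 68.8% within 1000 bp (all summits at starts 69.1% and 66.5%). With the outermost 5' end only it was 77.8% (all summits at starts 70.9%). The share in both replicates was 63.6% when peaks had to share 50% of the shorter peak (all 43.4%). It was also 63.6% when summits had to lie within 100 bp (all 42.4%). No paired analysis was possible because there is 1 group. Depth is not known, so a gene without a summit is not shown to lack binding.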
